A study of Mus musculus with 11 samples.

Results

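The genes described here are 8 transcription factors that mark the posterior or the anterior side of the limb bud. They were chosen by name: Hand2, Tbx2, Tbx3 and Sall3 for the posterior side, and Alx4, Pax9, Irx3 and Irx5 for the anterior side. All 8 were found among the 47517 rows of the count table, and 7 of them had enough reads to be tested among 15821 genes. Pax9 had 56 reads over all libraries and was left out of the tests by the filter on low counts.

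RNA-seq was done on forelimb buds of C57BL/6 mouse embryos at E10.5. Control embryos were Gmnn +/f; Prx-Cre (5 libraries) and mutant embryos were Gmnn f/f; Prx-Cre (6 libraries). Gmnn encodes Geminin, an inhibitor of replication licensing, and f marks a floxed allele, which Cre recombinase can delete. Both genotypes carried Prx-Cre and at least 1 floxed allele, so the controls can lose 1 copy of Gmnn where Cre is active. Prx-Cre acts in the limb mesenchyme, and the ectoderm, vessels, blood and migrating muscle precursors in the same bud keep their alleles. The titles place the embryos in 4 litters, called A to D here: A held controls 1 and 2 and mutants 1 and 2, B held control 3 and mutant 6, C held control 4 and mutant 5, and D held control 5 and mutants 3 and 4.

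The early limb bud is divided along its thumb-to-little-finger axis before Sonic hedgehog (Shh) is switched on. Hand2, a basic helix-loop-helix factor, marks the posterior mesenchyme and is needed there for Shh expression, while the Gli3 repressor holds the anterior side and the pair restrain each other. Shh then signals through Ptch1 and the Gli factors, and posterior genes such as Grem1 and the 5′ Hoxd genes depend on it. Alx4, a paired-type homeodomain factor, marks anterior mesenchyme, and its loss in mice gives extra anterior digits. Irx3 and Irx5, homeodomain factors of the Iroquois family, act in the early anterior bud, and Pax9 is found in a small anterior domain.

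Library totals were 14721181 to 19733288 counts. Gmnn, the targeted gene, lay at 139.3 to 238.9 CPM (counts relative to the scaled library total) in controls and at 99.5 to 137.7 CPM in mutants. The tissue label was checked with 7 markers of limb mesenchyme, which summed to 687 to 919 CPM in controls and 695 to 799 CPM in mutants, with medians of 855 and 759 CPM. Of these 7 markers 1 passed the test described below, where 2.18% of all genes passed, 1.48% on the lower side. It was Lhx9, a LIM-homeodomain factor of limb mesenchyme, which fell from 248.7 to 177.5 CPM (log2 fold change -0.50, SE 0.10, edgeR adjusted p 0.0406). Whether this call held with single libraries left out was not examined. Hindlimb genes (Tbx4, Pitx1 and Isl1 summed) reached 18.6 CPM in control 2, where every other library had between 2.69 and 8.45 CPM. The excess lay in Isl1 (11.8 CPM) and Pitx1 (4.07 CPM), while Tbx4 (2.73 CPM) was within the range of the other libraries. Control 2 was also far above the others in Hand1 (70.9 CPM, against 1.42 to 16.9) and was the highest control for Hand2. Without control 2 the log2 fold change of Hand2 was 0.45 (edgeR adjusted p 0.146) and that of Alx4 -0.53 (edgeR adjusted p 0.147). In litter D, control 5 and mutant 4 stood apart: each was lowest of its genotype in the summed level of 7 distal Hox genes (Hoxa10, Hoxa11, Hoxa13 and Hoxd10 to Hoxd13), at 178.7 and 237.4 CPM, where the other controls had 249.4 to 419.8 and the other mutants 293.5 to 370.4. Values without this pair, a choice made after seeing the data, stand beside the results where its omission moved them most. Control 5 is the only control of litter D. Without it, and with litter as a block, mutant 3 adds nothing to the genotype contrast. Those values thus rest on litters A to C. The titles number separate embryos, and in these whole buds fewer cells of a type and less RNA per cell cannot be told apart.

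Hand2 (chromosome 8, 57320983 to 57324517, plus strand, mm10) has a divergent neighbour whose transcript starts 124 bases away. The table lists it as AV026068 (57304265 to 57320859, minus strand), and RefSeq gives the long non-coding RNA Hand2os1 at 57304261 to 57320859. The sequence between the 2 starts is shown because both transcripts run out of it and both are measured below. It is taken from RefSeq on GRCm38.p6, chr8:57320733-57320982, plus strand, and ends at the base before the Hand2 start. Capitals mark the 123 bases between the transcripts, of which 56.1% are G or C.
Hand2 upstream: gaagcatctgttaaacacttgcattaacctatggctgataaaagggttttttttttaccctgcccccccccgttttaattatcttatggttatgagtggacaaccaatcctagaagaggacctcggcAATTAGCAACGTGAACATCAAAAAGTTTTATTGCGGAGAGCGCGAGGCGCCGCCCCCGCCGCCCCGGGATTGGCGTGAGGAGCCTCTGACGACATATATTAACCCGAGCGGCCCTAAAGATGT

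A search of both strands of these 250 bases found CCAAT, the letters read by CCAAT-box factors, at 2 places, 1 of them in the capitals. CANNTG, the E-box read by basic helix-loop-helix factors, was found at 2 places, with 0 in the capitals. TATAAA and the Gli core GACCACCCA had 0 matches. Of 32851 windows of the same length upstream of annotated starts, 33.8% held CCAAT, 66.2% CANNTG, 12.4% TATAAA and 0.225% GACCACCCA. These are matches of letters only. The promoter table held 3 of the 8 genes, Hand2, Irx3 and Pax9.

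None of the 7 factors tested passed an adjusted p of 0.05 in edgeR's quasi-likelihood test, which had litter as a block and Benjamini-Hochberg adjustment over all genes. Of all genes 2.18% passed, 0.702% on the higher and 1.48% on the lower side. At an unadjusted p under 0.05 in the edgeR test there were 2 of the 7, Hand2 and Alx4, where 21.4% of all genes were under it, 9.84% on the higher and 11.5% on the lower side. Their values lay in opposite directions, Hand2 above and Alx4 below the control level. The libraries of the 2 genotypes overlapped for each of the 8 factors; over all genes tested 2.59% had no overlap, 1.29% with the mutants higher and 1.3% with the mutants lower.

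**Figure D1:**
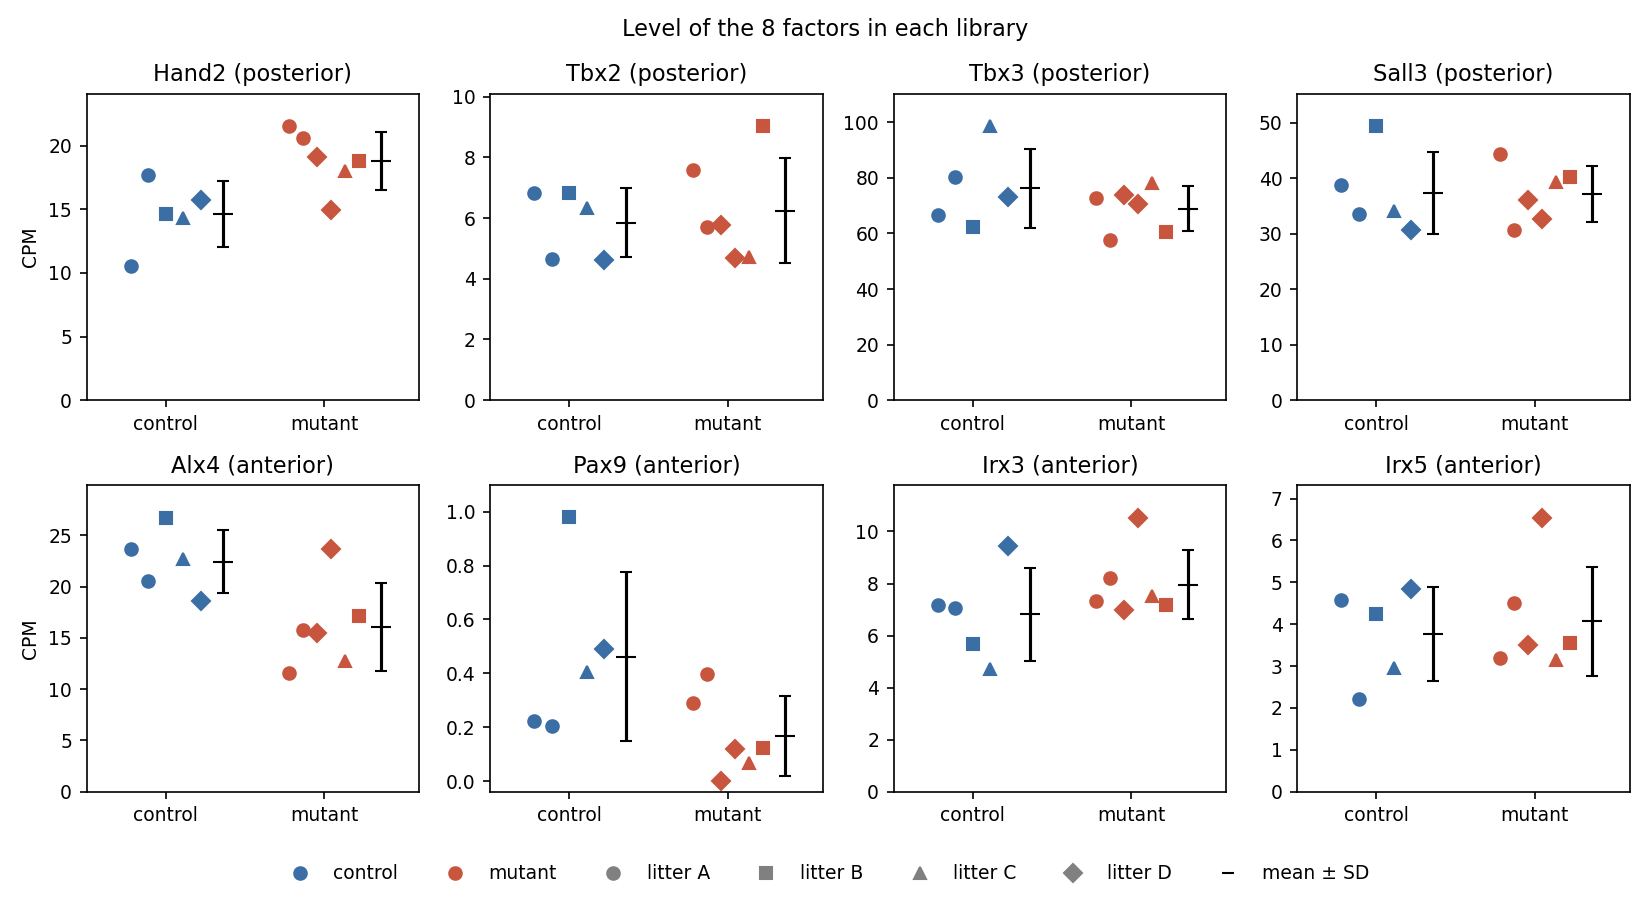
Level of the 8 factors in CPM in each library, with one panel per gene; marker shapes give the litter, colours the genotype, and bars the mean ± SD. In the Hand2 and Alx4 panels 5 of the 6 mutants sit outside the control range, on the high side for Hand2 and on the low side for Alx4, and mutant 4 sits inside it.

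Hand2 stood at 10.6, 17.7, 14.7, 14.3 and 15.8 CPM in controls 1 to 5 and at 21.5, 20.6, 19.1, 14.9, 18.04 and 18.8 CPM in mutants 1 to 6. Mutants 1, 2, 3, 5 and 6 (18.04 to 21.5 CPM) all lay above the highest control, and mutant 4 lay among the controls. The means were 14.6 ± 2.61 CPM (SD, n = 5) and 18.8 ± 2.29 CPM (SD, n = 6). The log2 fold change was 0.37 (SE 0.14, 95% interval 0.06 to 0.68), which is 1.29-fold, with an unadjusted p of 0.0214 and an adjusted p of 0.161 in edgeR's quasi-likelihood test. All 4 litters had the higher mean in mutants, by 0.62, 0.35, 0.33 and 0.10 on the log2 scale in A to D, and 26% of all genes had the same sign in all 4. Without control 1, the lowest library, the log2 fold change was 0.25 (edgeR adjusted p 0.254).

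Tbx2 and Tbx3 are T-box repressors expressed in stripes along both margins of the bud, and the naming used here counts them with the posterior factors. Tbx3 (chromosome 5, 119670669 to 119684724) was at 66.6, 80.4, 62.4, 98.5 and 73.1 CPM in controls 1 to 5 and at 72.6, 57.6, 74.0, 70.5, 78.2 and 60.7 CPM in mutants 1 to 6. The mutants lay within the control range apart from mutants 2 and 6, which were just under it. The log2 fold change was -0.14 (SE 0.09, 95% interval -0.33 to 0.04, edgeR adjusted p 0.370), and the mutant mean was the lower one in all 4 litters.

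Tbx2 (chromosome 11, 85832551 to 85841948) was much scarcer, at 6.82, 4.63, 6.82, 6.33 and 4.62 CPM in controls and 7.58, 5.69, 5.78, 4.70, 4.71 and 9.02 CPM in mutants. Only mutants 1 and 6 exceeded the highest control. Its log2 fold change was 0.13 (SE 0.17, 95% interval -0.24 to 0.50, edgeR adjusted p 0.723), with litter C on the negative side (-0.42) and the other litters on the positive. It was 0.04 without control 2 and 0.25 without control 4.

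Sall3 (chromosome 18, 80966376 to 80986578, minus strand), a zinc-finger factor of the spalt family, gave 38.8, 33.5, 49.3, 34.1 and 30.7 CPM in controls and 44.3, 30.6, 36.01, 32.7, 39.4 and 40.2 CPM in mutants. The means were almost equal, at 37.3 ± 7.34 CPM (SD, n = 5) for controls and 37.2 ± 5.08 CPM (SD, n = 6). The log2 fold change of 0.04 (SE 0.11, 95% interval -0.20 to 0.28, edgeR adjusted p 0.870) did not pass, and its sign turned when litter was left out of the model or mutant 1 was omitted.

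On the anterior side, Alx4 (chromosome 2, 93642384 to 93681339) had the smallest p of the 7 factors. It stood at 23.7, 20.5, 26.7, 22.7 and 18.6 CPM in controls 1 to 5 and at 11.6, 15.7, 15.5, 23.7, 12.7 and 17.1 CPM in mutants 1 to 6. Mutants 1, 2, 3, 5 and 6 (11.6 to 17.1 CPM) were all below the lowest control, and mutant 4 was above 4 of the 5 controls. The means were 22.4 ± 3.10 CPM (SD, n = 5) and 16.1 ± 4.28 CPM (SD, n = 6).

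The log2 fold change of Alx4 was -0.53 (SE 0.16, 95% interval -0.88 to -0.17), or 0.694 of the control level, with an unadjusted p of 0.00682 and an adjusted p of 0.0944 in edgeR's quasi-likelihood test. By litter the difference was -0.70, -0.64, -0.83 and 0.05 on the log2 scale in A to D. Control 5, the sole control of litter D, was the lowest control, and mutants 3 and 4 of that litter lay on either side of it. Without control 5 the log2 fold change was -0.72 and passed (edgeR adjusted p 0.0284), in a fit that called 850 genes. Without control 5 and mutant 4 together, a choice made after seeing the data, it was -0.72 (edgeR adjusted p 0.0487), and 127 genes passed in all. Both fits take the genotype contrast from litters A to C, as litter D then has no control, so they are not separate checks. DESeq2 on all libraries called Alx4 (-0.53, adjusted p 0.0212), as did edgeR without a filter on low counts (-0.53, adjusted p 0.00114). Those fits called 1194 and 1566 genes in all, where the main fit called 345. A test of whether the fold differed between litters gave p 0.198 for Alx4 and 0.703 for Hand2 in edgeR, and its adjusted p was 0.950 or more for each of the 7 factors; 0% of all genes passed that test, and 3.82% had an unadjusted p under 0.05.

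**Figure D2:**
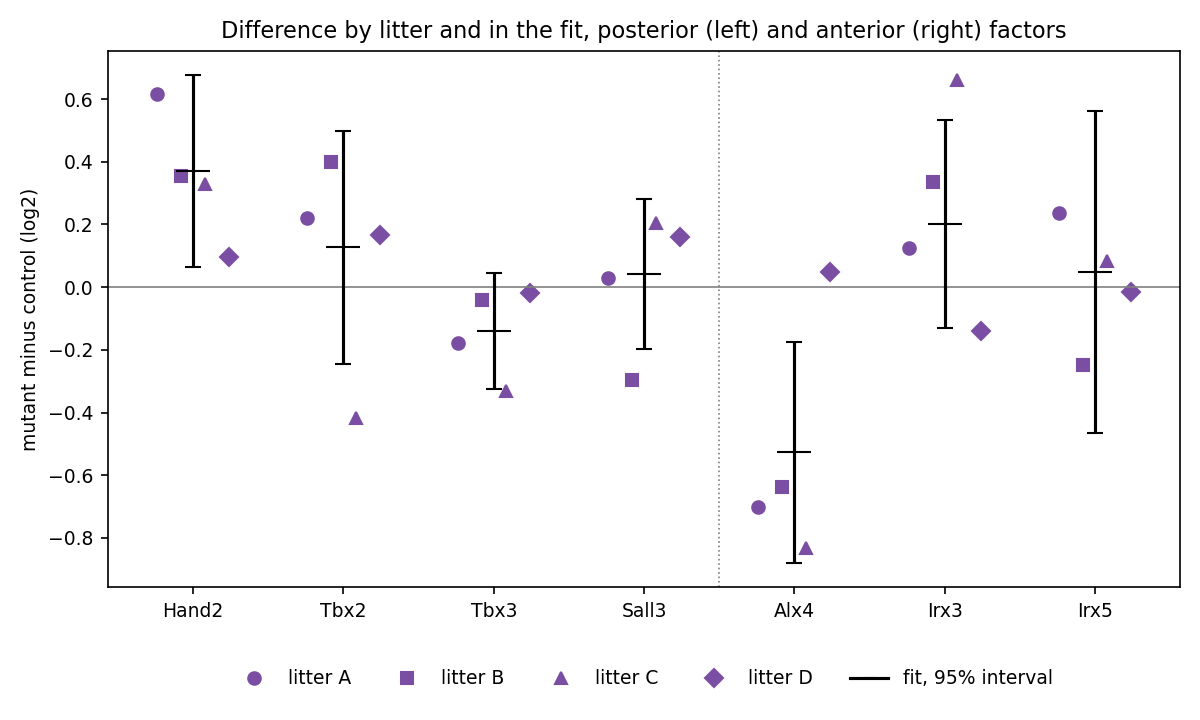
Mutant minus control difference in log2 CPM for the 7 factors tested, by litter (purple markers), with the edgeR fold change and its 95% interval in black; posterior factors are left of the dotted line. The Hand2 interval lies above 0 and the Alx4 interval below 0, both before adjustment for the number of genes, and the other 5 intervals include 0.

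Irx3 and Irx5 lie on the same chromosome, in the same Iroquois cluster. Irx3 (chromosome 8, 91798525 to 91801916, minus strand) had 7.16, 7.05, 5.67, 4.71 and 9.46 CPM in controls and 7.35, 8.20, 6.99, 10.52, 7.52 and 7.18 CPM in mutants. Its log2 fold change was 0.20 (SE 0.15, 95% interval -0.13 to 0.53, edgeR adjusted p 0.482). It was 0.10 without mutant 5, 0.31 without control 5 and 0.31 without control 5 and mutant 4 (edgeR adjusted p 0.299 for the last). Irx5 (chromosome 8, 92357796 to 92361456) had 4.59, 2.21, 4.25, 2.96 and 4.83 CPM in controls and 3.18, 4.50, 3.49, 6.54, 3.14 and 3.56 CPM in mutants, for a log2 fold change of 0.05 (SE 0.24, 95% interval -0.47 to 0.56, edgeR adjusted p 0.936). The sign of the Irx5 value turned without control 2, mutant 2, mutant 4 or litter A. In both genes the highest control was control 5 and the highest mutant was mutant 4, the 2 libraries low in distal Hox genes. The fold change of Irx3, with an interval that includes 0, had the opposite sign from that of Alx4, which is also counted as anterior. That of Irx5 was near 0 and had no steady sign.

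Pax9 (chromosome 12, 56691767 to 56712822), a paired-box factor, had 4, 4, 18, 7 and 7 reads in controls 1 to 5 and 5, 6, 0, 2, 1 and 2 reads in mutants 1 to 6. At these counts no fold can be stated with useful precision. The same edgeR test without the filter on low counts gave -1.35 (adjusted p 0.357). Control 3, with the most Pax9 reads, was also the highest library for Pax1, a paired-box gene of the sclerotome, at 16.2 CPM where the other libraries had 0 to 3.44 CPM, and for 7 somite and sclerotome markers summed (143.1 CPM, against 58.4 to 101.2 CPM in the others). Meox2 (66.9 CPM) and Tbx18 (43.9 CPM) made up most of that sum. Meox1, another of the 7, was lower in control 3 (14.7 CPM) than in every other library. Nkx3-2, Uncx and Foxc2 were each at 1.145 CPM or less there. Whether trunk tissue contributed to the Pax9 reads was not tested.

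Per length, the order of the factors can be compared. In RPKM, which divide CPM by exon length in kilobases, control levels ran from Tbx3 (11.5 ± 2.15, SD, n = 5) through Hand2 (6.54 ± 1.17), Sall3 (5.42 ± 1.07), Alx4 (3.18 ± 0.439), Irx3 (2.61 ± 0.689), Tbx2 (1.61 ± 0.311) and Irx5 (1.57 ± 0.470) to Pax9 (0.0913 ± 0.0622). Hand2 and Sall3 overlapped in range, as did Alx4 and Irx3, Irx3 and Tbx2, and Tbx2 and Irx5. In mutants the order was the same apart from Alx4 and Irx3, which exchanged places: Irx3 had 3.05 ± 0.507 RPKM (SD, n = 6) and Alx4 2.28 ± 0.606 RPKM (SD, n = 6). Irx3 was above Alx4 in 6 of 6 mutants, and Alx4 above Irx3 in 4 of 5 controls, control 5 being the exception; their ranges overlapped in both groups. At these lengths the ranges of Hand2 and Tbx3 overlapped in mutants only. Hand2 had 8.42 ± 1.02 and Tbx3 10.4 ± 1.21 RPKM there (SD, n = 6). The lengths include exon bases shared with another gene, which add no reads: 443 of 2235 for Hand2 and 115 of 6624 for Tbx3. The RPKM of Hand2 are thus understated more than those of Tbx3. Their distance, and whether their ranges overlap, depend on the length used.

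The balance of the 2 sides was described as the mean log2 CPM of the 4 posterior factors minus that of Alx4, Irx3 and Irx5. It was 1.17, 1.64, 1.43, 1.76 and 1.08 in controls 1 to 5 and 2.04, 1.34, 1.67, 0.76, 1.74 and 1.72 in mutants 1 to 6, with means of 1.42 ± 0.29 (SD, n = 5) and 1.55 ± 0.44 (SD, n = 6). The mutant minus control difference was 0.29, 0.29, -0.02 and 0.14 in litters A to D and 0.19 with litter in the model. It is smaller than the SD of either group, but those SDs include differences between litters that the model takes out. The litter values, from -0.02 to 0.29, show the spread of the difference more directly. The difference was not tested. The posterior mean differed by 0.10 and the anterior mean by -0.09 in the same model, and within each side some factors lay above and others below the control level.

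A contrast of Hand2 with Alx4 alone was much wider. The ratio of their reads was 0.447, 0.862, 0.549, 0.632 and 0.849 in controls 1 to 5 and 1.86, 1.31, 1.23, 0.629, 1.42 and 1.10 in mutants 1 to 6. Thus 5 of 6 mutants had more Hand2 than Alx4 reads and 0 of 5 controls did. On the log2 CPM scale the mean difference between the genes had opposite signs, with -0.62 ± 0.41 (SD, n = 5) for controls and 0.26 ± 0.52 (SD, n = 6) in mutants. By litter the shift was 1.32, 0.99, 1.16 and 0.05. The pair was picked because both had unadjusted p under 0.05, so this is a description and carries no test. The crossing of equal reads and the opposite signs depend on exon length, 2235 bases for Hand2 and 7060 for Alx4. In RPKM, Hand2 was above Alx4 in every library of both genotypes. Hand2 had at least 4.73 RPKM in controls and 6.68 in mutants, where Alx4 had at most 3.78 and 3.36.

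**Figure D3:**
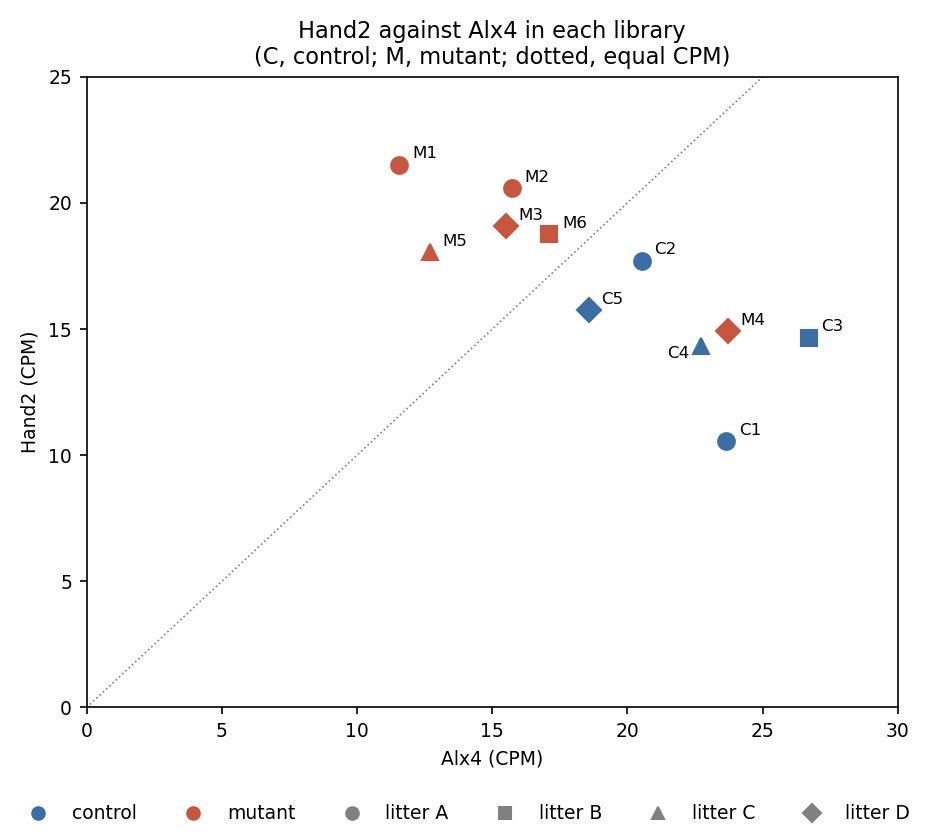
Hand2 against Alx4 in CPM for each of the 11 libraries, with colours for genotype and shapes for litter; the dotted line marks equal CPM. Mutants 1, 2, 3, 5 and 6 lie above the line, and the 5 controls and mutant 4 lie below it. CPM are not divided by exon length, so the line does not mark equal levels per length.

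Mutant 4 stood apart from the other mutants in more than this pair. Its Gmnn level of 130.0 CPM was the second highest among mutants and below every control. In the same library Gli1, Ptch1 and Grem1 were each lowest of the mutants, at 7.02, 19.9 and 11.5 CPM, and Hoxd12 stood at 1.19 CPM. Its littermate control 5 was likewise lowest of the controls in these genes, with 2.66, 16.4, 11.7 and 0.350 CPM. Within litter D, mutant 3 differed from mutant 4 in each: 15.3 CPM for Gli1, 30.9 for Ptch1, 22.6 for Grem1 and 15.9 for Hoxd12. The part of this shared pattern in the Hand2 and Alx4 values was not tested.

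The divergent transcript beside Hand2 lay in the same direction as Hand2. AV026068 was at 32.2, 44.3, 42.0, 42.8 and 16.3 CPM in controls 1 to 5 and at 61.6, 62.9, 44.3, 25.2, 36.8 and 67.2 CPM in mutants 1 to 6. Its log2 fold change was 0.61 (SE 0.18, unadjusted p 0.00608, adjusted p 0.0911, edgeR), with the higher mean in mutants in 3 of 4 litters. DESeq2 called it (adjusted p 0.00967), and so did edgeR without the filter on low counts (adjusted p 4.35e-07), fits that called 1194 and 1566 genes in all. Without control 5 and mutant 4 it was 0.47 (edgeR adjusted p 0.150). Unlike Hand2, it was lowest in control 5 among the controls and below the control mean in mutant 4. The 123 bases shown above separate the 2 transcripts, and their exons do not overlap in the annotation of the table.

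**Figure D4:**
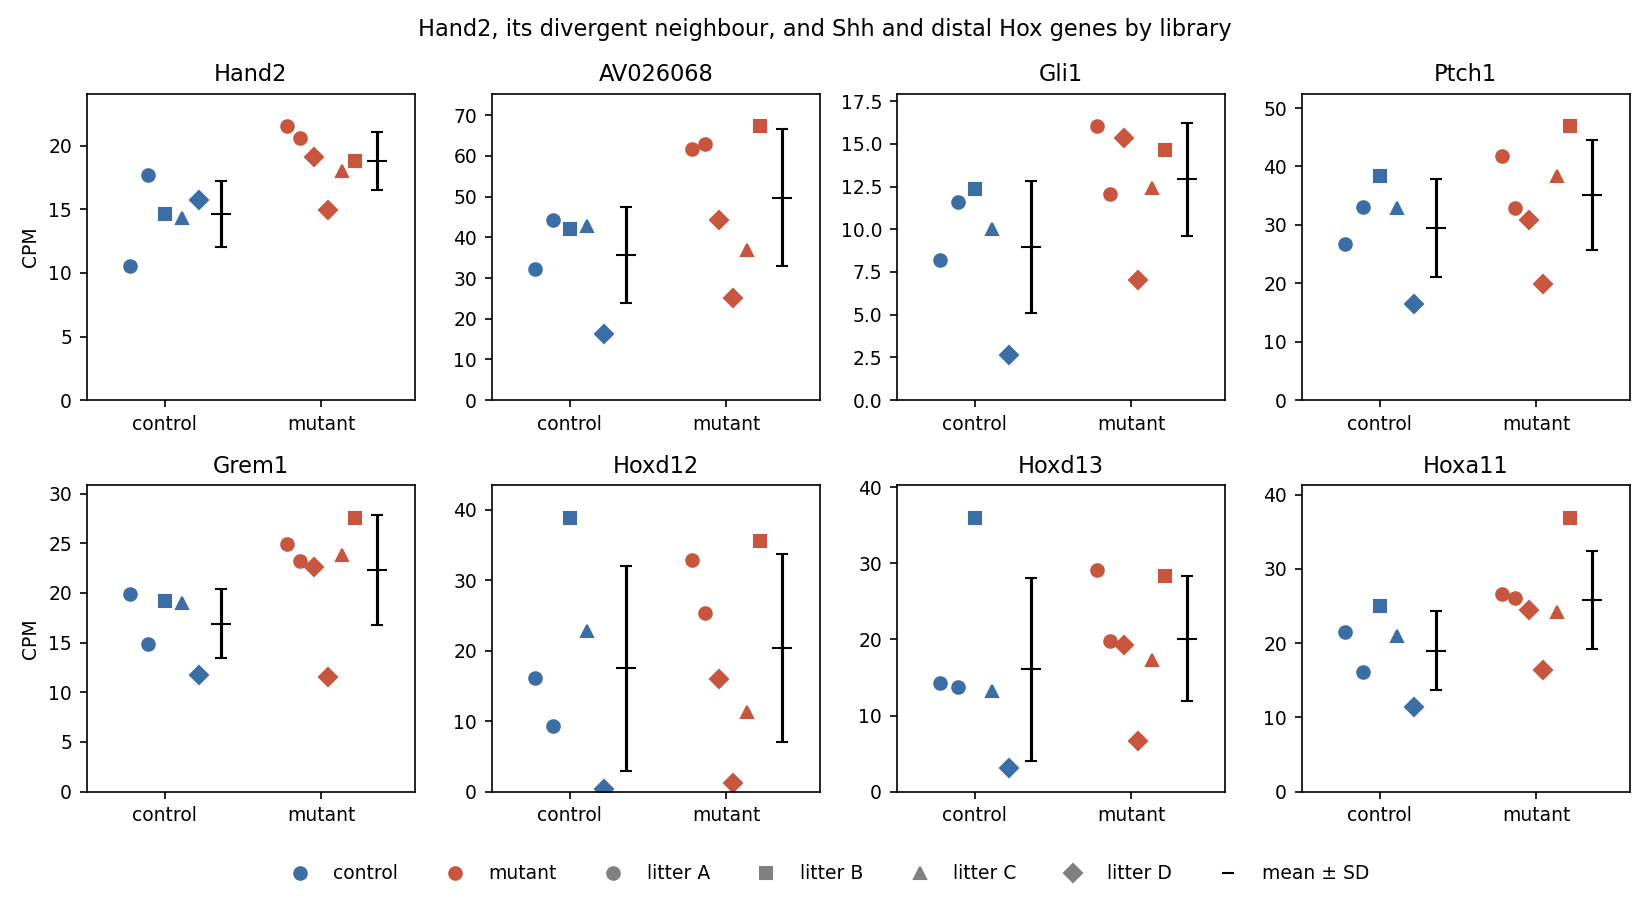
CPM by library for Hand2, its divergent neighbour AV026068, the Shh response genes Gli1, Ptch1 and Grem1, and 3 distal Hox genes; shapes give the litter and bars the mean ± SD. Control 5 and mutant 4, both diamonds, are the lowest libraries of their genotype in all panels other than Hand2, where control 5 is not.

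Other neighbours gave no call. Of 23 genes tested within 250 kb of a factor, 0 passed in edgeR, 10 lay above 0, and the median log2 fold change was -0.05. Over all genes 2.18% passed and 8022 of 15821 lay above 0. Next to Irx3, Fto, an RNA demethylase gene known for hosting Irx3 enhancers, had -0.37 (SE 0.10, edgeR adjusted p 0.0673), while Irx3os, antisense to Irx3, had 0.01 (SE 0.30). Crnde, which starts 1676 bases from Irx5, had -0.05 (SE 0.13). Beside Alx4, Ext2, whose span reaches into that of Alx4, had 0.21 (SE 0.09, edgeR adjusted p 0.222) and Accs had -0.32 (SE 0.11, edgeR adjusted p 0.146).

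Counting ignored strand, and reads over 2 genes were left out, so exons shared with another gene add nothing to a factor's count. This applied to 443 of the 2235 exon bases of Hand2 (19.8%), which are shared with the antisense gene Gm28063 (0 reads), a name that RefSeq gives as a synonym of Hand2os1. It also applied to 4.75% of the exon bases of Irx3 (Irx3os), 3.74% of Pax9 (Slc25a21) and 1.74% of Tbx3 (Tbx3os1). The other 4 factors shared none.

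Among 25 relatives of the factors in the Alx, Pax, Irx, Zic, Hand, Tbx and Sall families, 19 were tested and 0 passed in edgeR. At an unadjusted edgeR p under 0.05 there were 0 above and 2 below, where 9.84% and 11.5% of all genes were. The 2 were Tbx5, the T-box factor that starts forelimb outgrowth (-0.28, SE 0.10, edgeR adjusted p 0.134, lower mean in all 4 litters), and Sall2 (-0.20, SE 0.09, edgeR adjusted p 0.233). The 19 relatives had a median log2 fold change of -0.20, with 15 of 19 below 0. Over all genes tested the median was 0.004, and 7799 of 15821 lay below 0. The next by p were Pax3, a factor of migrating muscle precursors (0.30, edgeR adjusted p 0.307), and Tbx20 (-2.23, edgeR adjusted p 0.358), which stood at 7.77 CPM in control 2 and at 0.755 CPM or less in every other library.

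Alx1, a close relative of Alx4, was at 51.1 CPM on average in controls and 49.7 CPM in mutants (log2 fold change -0.09, SE 0.15, edgeR adjusted p 0.778). It was highest in control 5 among controls and in mutant 4 among mutants, as Irx3 and Irx5 were. Of the Zic family, zinc-finger factors of anterior and dorsal tissue, Zic2 and Zic5 had log2 fold changes of -0.15 and 0.11. Zic1 and Zic4, neighbouring genes, had 56 and 47 reads in all; control 5 held 2.94 and 2.52 CPM of them and the other libraries at most 0.273 CPM.

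In the Shh relay 15 of 15 genes were tested, with a median of -0.002. Past the threshold in edgeR were 0 higher and 1 lower, where 0.702% and 1.48% of all genes were. The call was Gas1, a Shh co-receptor that Shh itself represses: it fell from 88.0 CPM to 67.9 CPM, by 0.39 on the log2 scale (SE 0.08, edgeR adjusted p 0.0457), in all 4 litters. Omitting any 1 of the 11 libraries ended the call (edgeR adjusted p up to 0.176) and kept the direction; on correction for the T-run index described below its adjusted p was 0.278 in edgeR. Response genes lay on the other side without passing: Gli1 had 0.70 (SE 0.27, adjusted p 0.170) and Ptch1, the receptor, 0.37 (SE 0.13, adjusted p 0.128), both with the higher mean in mutants in 4 of 4 litters by edgeR. Without control 5 and mutant 4, each the lowest of its genotype in both, they had 0.39 and 0.29 (edgeR adjusted p 0.197 and 0.188). Shh itself had 0.83 (SE 0.40, edgeR adjusted p 0.262) at 0.856 CPM in controls and 1.23 CPM in mutants. Gli3, the anterior partner of Hand2, had -0.06 (SE 0.09) at 138.3 and 137.3 CPM, and Gli2 had -0.13 (SE 0.08).

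The 21 regulators of the prepattern had a median of -0.004. In edgeR 0 passed on the higher side and 1 on the lower, where 0.702% and 1.48% of all genes did. Meis1, a proximal homeodomain factor, fell by 0.63 (SE 0.10, edgeR adjusted p 0.0291), a call that ended on omission of any of 9 of the 11 libraries and on correction for the T-run index (edgeR adjusted p 0.175). Its paralogue Meis2 had -0.07 (SE 0.09). Twist1, a basic helix-loop-helix partner of Hand2, had 0.25 (SE 0.08, edgeR adjusted p 0.101), and Twist2 had 0.40 (SE 0.13, edgeR adjusted p 0.120). Of the E proteins, the common dimer partners of this class, Tcf3 had 0.18 (SE 0.08) and Tcf12 -0.23 (SE 0.09), with edgeR adjusted p of 0.222 and 0.160. The Twist genes and Tcf3 thus lay above, and Tcf12 below, the control level with unadjusted p under 0.05 and no call.

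Among 14 signals, 0 passed either way, where 2.18% of all genes did, and the median was 0.07. Grem1, the Bmp antagonist that keeps the ridge signalling, had 0.47 (SE 0.15, edgeR adjusted p 0.112) with the higher mean in mutants in 4 of 4 litters, and 0.45 (edgeR adjusted p 0.0836) without control 5 and mutant 4. Bmp4, a Bmp ligand, had 0.21 (SE 0.09), the Notch ligand Jag1 -0.39 (SE 0.17) and Runx2 -0.59 (SE 0.33), with edgeR adjusted p of 0.223, 0.203 and 0.331. Among the 7 distal Hox genes 0 passed and 7 lay above 0, with a median of 0.53. Of all genes tested, 8022 of 15821 lay above 0. Hoxa11 came nearest to a call (0.53, SE 0.13, edgeR adjusted p 0.0546). Hoxd13 (0.70), Hoxd11 (0.62) and Hoxd12 (0.76) followed, with edgeR adjusted p of 0.224, 0.228 and 0.506. Without control 5 and mutant 4 the Hox values were smaller: 4 of the 7 lay above 0, the median was 0.31, and Hoxa11, Hoxd13, Hoxd11 and Hoxd12 had 0.44, 0.41, 0.31 and 0.32, with 0 passing in edgeR. The values of Hoxa10, Hoxa13 and Hoxd10 turned negative there.

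**Figure D5:**
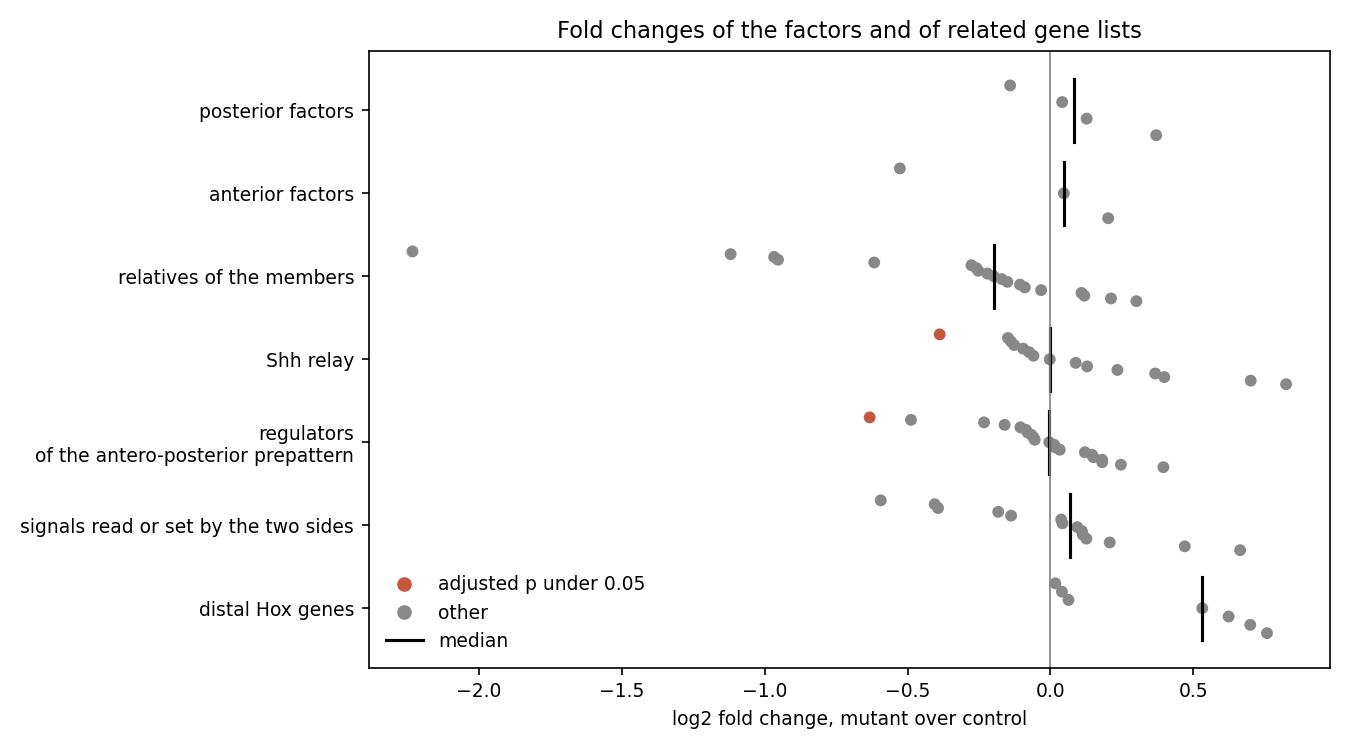
Log2 fold changes, mutant over control, of the posterior and anterior factors tested and of the genes of 5 related lists; each point is a gene, black bars are medians and red points passed an adjusted p of 0.05. Gas1 and Meis1, both below 0, are the only red points, and the factors lie between -0.53 and 0.37.

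Libraries also differed in the level of transcripts with long runs of T, and this went with genotype. A T-run index (median log2 CPM of 959 genes with runs of 18 bases or more, minus that of 4232 genes with runs of up to 5) was 2.57 to 2.95 in controls and 2.20 to 2.84 in mutants. The median log2 fold change was -0.20 over the genes with long runs and 0.06 over those with short ones. The longest run was 21 bases in Tbx3, 17 in Sall3 and 6 to 12 in the others. With the index as a covariate Hand2 had 0.19 (edgeR adjusted p 0.715), Alx4 -0.49 (edgeR adjusted p 0.426) and Sall3 0.27 (edgeR adjusted p 0.345), in a fit that called 3 genes in all.

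Markers of other cells were summed by library. Neural tube markers ranged from 34.8 to 59.1 CPM in controls and 26.4 to 55.0 CPM in mutants. Almost all of this was Tubb3, with means of 42.4 CPM in controls and 36.6 CPM in mutants. Sox1, Pax6, Olig2, Nkx2-2 and Neurog2 were each at 0.2102 CPM or less in every library, and 1 of the 6 markers was tested. Endothelial markers had a median of 150.4 CPM in controls and 162.8 CPM in mutants. Surface ectoderm, where Gmnn is not targeted, gave 122.8 to 261.9 CPM in controls and 146.3 to 242.4 CPM in mutants. Red cell markers ranged from 12850 to 32970 CPM and 16060 to 55140 CPM. In each of these sets the ranges of the 2 genotypes overlapped and 0 markers passed in edgeR, and their part in the values of the factors was not tested.

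The genes most alike each factor over the 11 libraries were found among 12038 genes by Pearson r of log2 CPM, which mixes genotype, litter and depth and is given as a description. For Hand2 they were Rnf10 (r 0.94) and Dlg3 (0.89), and for Alx4 they were Cab39l (0.87) and Arrb2 (0.87). Tbx3 was nearest to Gtf2h1 (0.96) and Dera (0.91), Tbx2 to Fnbp1l (0.91) and Zfp462 (0.90), and Sall3 to Ovca2 (0.94) and Fam13c (0.94). Irx3 was nearest to Tmem204 (0.90) and Clec1b (0.89), and Irx5 to Mkrn1 (0.86) and Tmem82 (0.86). None of these 14 genes is in the lists above, but those lists hold few of the 12038 candidates, so nothing is read from this. The factors themselves, Xist, Y-linked genes and predicted or clone names had been left out of the candidates. Rnf10, a ubiquitin ligase gene, had a control mean of 107 ± 7.41 CPM (SD, n = 5) and a mutant mean of 118 ± 6.53 CPM (SD, n = 6).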

How the data were processed

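The deposited values are raw counts per gene name for 11 libraries. Per the file headers, the authors counted with featureCounts 1.4.6-p4 on mm10 and GENCODE M9, at a mapping quality of 10 or more, with no option for strand, read pairs, overlaps or multi-mapping. STAR 2.5.4b is named in the submitters' processing notes. Per the labels' protocols, RNA was depleted of ribosomal RNA.

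From these counts, genes were filtered with filterByExpr (15821 kept, 99.9% of counts), scaled by TMM, and tested with edgeR 4.0.16 (limma 3.58.1, R 4.3.3) by a two-sided quasi-likelihood F test with litter as a block, with Benjamini-Hochberg adjustment and a threshold of 0.05. The interaction was tested on its 3 coefficients. CPM are relative to TMM-scaled totals, log2 CPM use a prior count of 2, and RPKM divide by the deposited exon length in bases. Scripts were tested on simulated data. Litters come from the titles, and the design text describes litter-matched pairs: deviations from group means correlated across genes with a median of 0.13 over 8 same-litter pairs and -0.02 over 22 others. No 2 libraries of a group agreed within sampling noise (lowest chi-square per degree of freedom 6.82). Alternatives were scaling by RLE or the upper quartile, no filter or 1 CPM in 5 libraries, DESeq2 1.42.0, limma-voom, no block, each library or litter left out, counts without mitochondrial genes, globins and ribosomal RNA, and removal or correction for T runs in GENCODE M21 transcripts.

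Members, lists and alternatives were chosen with earlier results of these data known. Named genes are the 8 factors, list genes past the threshold or with the 4 smallest p, the 2 nearest neighbours and genes with shared exons, and the 2 most alike each factor. Alx1, Zic1, Zic2, Zic4, Zic5, Pax1, Gli3, Meis2, Hand1 and Lhx9 were added after their values were seen.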

Additional observations from a re-analysis of the deposited data

How the results depend on the processing

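Hand2, Alx4, Tbx2, Tbx3 and Irx3 kept their sign in every alternative run, from 0.19 to 0.46 for Hand2, -0.72 to -0.42 for Alx4, 0.04 to 0.26 for Tbx2, -0.18 to -0.08 for Tbx3 and 0.10 to 0.31 for Irx3 on the log2 scale. In place of 0 factors past the threshold, 1 (Alx4) passed without the filter on low counts and with DESeq2. It also passed without control 5, without litter D, and without control 5 and mutant 4, the last chosen after seeing the data. The fits without control 5 or litter D are not separate, as each takes the genotype contrast from litters A to C. In litters B and C, leaving out either library likewise removes the litter from the contrast. Leaving out single libraries gave 0 to 1 factors. Sall3 turned to -0.0018 without the replicate block and ranged from -0.039 to 0.12 when single libraries were left out, and Irx5 ranged from -0.10 to 0.19 in the same fits and was -0.030 without litter A. The balance of the sides ranged from 0.08 to 0.29 over the fits without 1 library. The cause of these shifts was not tested.

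The count of all genes called, 345, was 1566 without the filter, 550 with 1 CPM in 5 libraries, 1194 with DESeq2, 16 without the block, 1 to 850 without single libraries, and 9, 3, 1 and 148 without litters A to D. It was 102 without genes with T runs of 15 bases or more (Tbx3 and Sall3 among those removed, so that no balance was computed), 3 with the T-run index and 127 without control 5 and mutant 4. The interaction, with 0 genes, gave 438 without the filter. The block changed no call of a factor. Pax9, with 0 to 18 reads per library, is limited by depth.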
